A study of Mus musculus with 6 samples.

Results

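Genes of motile cilia and of the ependyma were examined in choroid plexus epithelium of wild type and RAG-/- mice on the B10.PL strain. The set was a list of 32 genes given by name, drawn up with earlier results of these data known, and a gene was measured where a probe set of the array carried its symbol alone. By that rule 30 of the 32 genes were found, with 44 probe sets, among 18193 genes named on the array, and Mcidas and Cfap44 had no such probe set. Of the 30, 29 lay above the limit for dim probe sets, and only Dnah5, which encodes a heavy chain of the outer dynein arm, lay below it. Total RNA from 6 preparations labelled as choroid plexus epithelium of whole brain was measured on 1 single-colour array each, 3 described as wild type (WT) and 3 described as RAG or RAG -/-, all B10.PL. The labels give no age, sex or other treatment, do not name the disrupted RAG gene, and do not say whether a preparation was 1 animal or a pool, so the spread between arrays may be partly technical. A code in the titles joins 1 array of each genotype into a pair. In pair 1 the description says that the samples were swapped, so WT replicate 1 has RAG in its title and RAG-/- replicate 1 has B10. Arrays are named here by the description, and values are given for the genotype by description and by title.

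A motile cilium is a whip of microtubule doublets around a central pair, moved by dynein arms, held together by nexin links and radial spokes, and built by intraflagellar transport. The transcription factors Foxj1, Rfx2 and Rfx3 turn on its genes, and Mcidas starts the program of cells with many cilia. Ependymal cells, which line the brain ventricles, bear tufts of such cilia that stir the cerebrospinal fluid. The choroid plexus epithelium arises from the same neural lining and carries cilia of its own, so a gene of the axoneme may be read from both cell types, whereas genes such as Ccdc153, Tmem212 and Rarres2 are used as markers of ependyma.

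Values are log2(intensity + 16) after quantile normalization, and the range is the highest minus the lowest of the 6 arrays. The library labelled RAG-/- replicate 2 was unlike the rest: its score on principal component 1 was 106, and the rest scored between -69.3 and 31.2. Its mean over 18 choroid epithelium genes was 12.22, and the others lay between 13.09 and 13.27. Among the defining markers of that epithelium, Ttr, the carrier of thyroid hormone, averaged 14.76 and Kcnj13, a potassium channel, 14.53, so the labelled tissue was present in the data. Rag1 and Rag2, the subunits of the antigen receptor recombinase, were both below the dim limit, and as the labels do not say which was disrupted or where, neither checks the genotype. Rag1 was at 6.54, 4.16 and 4.35 in WT replicates 1, 2 and 3 and at 4.598, 6.92 and 6.31 in RAG-/- replicates 1, 2 and 3, and so was higher in the 3 arrays titled RAG and overlapped by description. Rag2 was at 4.46, 4.67 and 7.14 in WT and at 5.55, 4.87 and 5.99 in RAG-/-. The Y-linked genes Kdm5d and Eif2s3y were between 9.26 and 9.90 in RAG-/- replicates 1 and 3 and between 4.07 and 5.76 in the other 4 arrays. Xist, expressed from the inactive X chromosome, was at 9.04 and 7.43 in those 2 arrays and between 12.20 and 13.19 in the rest, and Uty, also Y-linked, was between 7.46 and 8.14 in them and between 4.92 and 6.004 elsewhere. The arrays of pairs 1 and 3 thus differed within the pair in these sex-linked genes. Within each of those pairs genotype and sex cannot be told apart. By description the array high in Y-linked genes was the RAG-/- one in pair 1 and in pair 3. By title it was the B10 array in pair 1 and the RAG array in pair 3, so that reading did not run the same way as sex over the pairs. Directions below refer to the arrays as labelled.

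The members parted by the way in which they varied. Most axonemal members differed more from pair to pair than within a pair, whereas Ccdc153, Tmem212, Rarres2 and Stoml3 differed within every pair and little between pair means. For 19 axonemal genes above the dim limit, the range of the 3 pair means had a median of 0.98, and the largest difference within a pair had a median of 0.53. For the 5 genes of the ependymal class these medians were 0.54 and 1.82. The spread between pairs exceeded that within pairs in 18 of 19 axonemal genes and in 0 of 5 ependymal genes, where 53.1% of all 13537 genes above the limit did so. It did so in only 3 of 18 choroid epithelium genes, so a low count was not particular to the ependymal genes. The axonemal exception was Dnah11, a dynein heavy chain. In a wider list of 125 other cilia genes the count was 72, and among its intraflagellar transport genes 19 of 34, both shares near that of all genes. Among its dynein assembly genes it was 9 of 11. The count of the 19 axonemal genes thus did not extend to cilia genes in general.

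**Figure D1:**
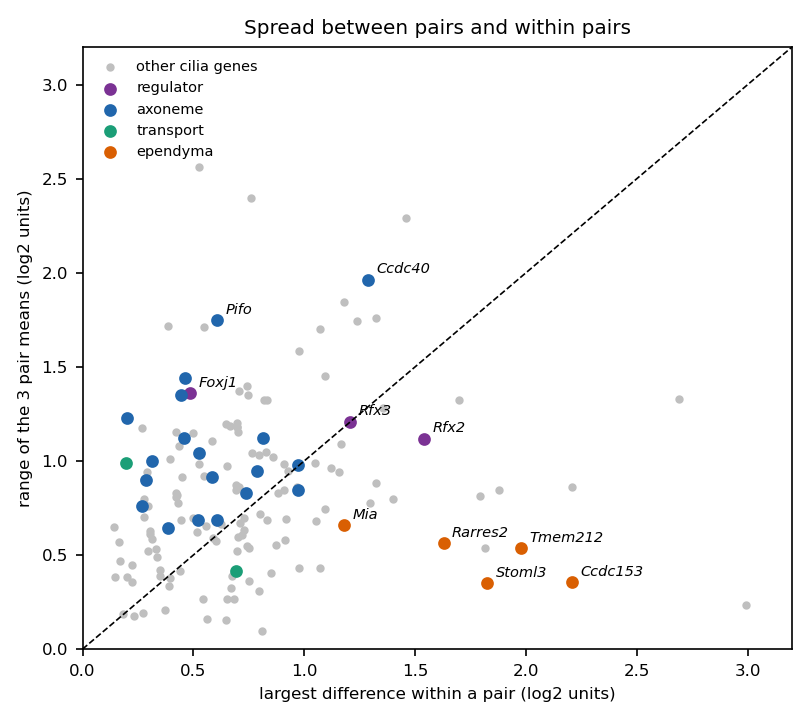
Range of the 3 pair means against the largest difference within a pair, both in log2 units, for the 29 members above the dim limit (coloured by class) and 125 other cilia genes (grey). Points above the dashed line of equality vary more between pairs, where 18 of 19 axonemal genes lie, and the 5 ependymal genes all lie below it.

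The promoters of the members were searched for letters of the sites that RFX and forkhead factors are known to bind, since Rfx and Foxj1 proteins regulate cilia genes. RefSeq promoters of build GRCm38.p6, from 250 bases before to 50 after each start site, were matched by symbol for 26 of the 30 measured members. Either strand was searched, and the share of all 27025 genes with a promoter is given beside each count. The half-site GTTGCC was found in 14 of 26 members, against 14.1% of all genes. The longer X-box form, GTTNCC followed by 3 bases of any kind and GNAAC, can overlap a half-site and was found in 4 of 26, namely Tekt4, Hydin, Enkur and Pifo, against 0.936% of all genes. All 4 belong to the axonemal class. The forkhead core GTAAACA was found in 2 of 26, Ak7 and Stoml3, against 4.05%. These were 3 of 11 spellings tried. Of the rest, the bare GTTNCC was found in 23 of 26, against 48.8% of all genes, and 7 longer X-box variants with other fixed letters in 0 to 4. A match is a description of letters, not of a bound site. Pifo and Enkur are shown as axonemal genes with the long form, Ccdc153 and Tmem212 as ependymal genes that moved together, and Stoml3 as the gene that followed the descriptions. They were chosen after the counts were seen. Capitals mark matches to GTTGCC, to the X-box form and to GTAAACA, on either strand.
Pifo, chr3:106001448-106001747, minus strand: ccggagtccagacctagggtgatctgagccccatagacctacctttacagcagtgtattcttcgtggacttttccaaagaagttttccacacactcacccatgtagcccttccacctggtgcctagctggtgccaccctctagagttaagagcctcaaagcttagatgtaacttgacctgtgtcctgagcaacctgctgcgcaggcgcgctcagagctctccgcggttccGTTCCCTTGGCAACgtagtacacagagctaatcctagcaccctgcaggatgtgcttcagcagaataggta
Enkur, chr2:21205316-21205615, minus strand: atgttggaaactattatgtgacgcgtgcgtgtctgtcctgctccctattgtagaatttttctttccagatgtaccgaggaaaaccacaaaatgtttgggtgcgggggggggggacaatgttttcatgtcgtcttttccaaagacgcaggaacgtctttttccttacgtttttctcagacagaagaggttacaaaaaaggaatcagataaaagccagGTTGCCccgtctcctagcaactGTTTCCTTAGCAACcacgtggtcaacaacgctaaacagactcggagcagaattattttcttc
Ccdc153, chr9:44240427-44240726, plus strand: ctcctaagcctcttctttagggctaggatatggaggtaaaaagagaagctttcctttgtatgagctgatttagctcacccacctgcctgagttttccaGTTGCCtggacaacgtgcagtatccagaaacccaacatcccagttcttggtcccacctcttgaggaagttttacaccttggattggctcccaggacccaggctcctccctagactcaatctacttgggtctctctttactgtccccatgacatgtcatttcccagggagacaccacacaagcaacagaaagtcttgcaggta
Tmem212, chr3:27896319-27896618, minus strand: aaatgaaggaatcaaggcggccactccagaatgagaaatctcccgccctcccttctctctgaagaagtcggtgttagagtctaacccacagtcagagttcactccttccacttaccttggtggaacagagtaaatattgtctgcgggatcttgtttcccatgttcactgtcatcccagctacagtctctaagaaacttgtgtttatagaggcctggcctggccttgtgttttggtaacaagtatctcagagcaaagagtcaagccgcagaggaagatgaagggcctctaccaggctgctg
Stoml3, chr3:53488457-53488756, plus strand: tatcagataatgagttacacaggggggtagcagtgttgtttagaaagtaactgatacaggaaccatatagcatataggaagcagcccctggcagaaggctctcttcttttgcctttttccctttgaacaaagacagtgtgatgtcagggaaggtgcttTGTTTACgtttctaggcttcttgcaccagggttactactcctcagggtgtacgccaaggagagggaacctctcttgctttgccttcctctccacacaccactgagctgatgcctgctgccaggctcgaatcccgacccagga
In Pifo the half-site lay inside the X-box match, and in Enkur a half-site stood apart from it. Ccdc153 held a half-site alone, Stoml3 the forkhead core on the reverse strand, and Tmem212 none of the 3 spellings.

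Among the transcriptional regulators, Foxj1, the main switch for motile cilia, lay at the 88.8 percentile of probe set brightness, a rank that does not compare transcript amounts between genes. It was at 10.75 and 10.49 in WT and RAG-/- replicate 1, at 9.97 and 9.48 in replicates 2, and at 10.93 and 11.25 in replicates 3. Both arrays of pair 2 were the lowest and both of pair 3 the highest, and the genotypes overlapped. RAG-/- minus WT was -0.14 (SE 0.48), from 10.55 ± 0.51 to 10.41 ± 0.88 (SD, n = 3). Rfx3, at the 88.5 percentile, was at 10.08 and 10.19 in pair 1, 10.59 and 9.39 in pair 2, and 11.22 and 11.17 in pair 3, WT first. On this probe set it too was highest in pair 3, but its low value was that of RAG-/- replicate 2 alone. A dimmer Rfx3 probe set was at 6.77 and 7.16, 6.61 and 6.43, and 7.09 and 6.84. There both arrays of pair 2 were the lowest and RAG-/- replicate 1 was the highest. Rfx2 was dim, at the 42.6 percentile for its brightest probe set, which ran from 4.71 in RAG-/- replicate 1 to 6.78 in WT replicate 2. Its 4 probe sets did not move alike, with differences between -0.63 and 0.34, so no direction was read from it.

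Of the axonemal genes, Pifo, which encodes a protein of the ciliary base, had the widest range apart from the dim Ccdc40. Pifo was at 11.55 and 11.60 in WT and RAG-/- replicate 1, 10.80 and 10.20 in replicates 2, and 12.27 and 12.23 in replicates 3. The pairs did not overlap one another, whereas the genotypes did. Rsph4a, a radial spoke head protein, was at 10.56 and 10.54, 9.86 and 9.40, and 10.96 and 11.18 in the same order. Cfap126, a protein that helps place basal bodies, was at 11.91 and 12.26, 11.29 and 10.84, and 12.29 and 12.55. Both repeat the order of Foxj1, with pair 2 lowest and pair 3 highest.

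The brightest member was Dynlrb2, a dynein light chain, at the 98.0 percentile. It was at 13.23 and 12.95 in pair 1, 12.38 and 12.18 in pair 2, and 13.15 and 13.21 in pair 3, WT first. Only pair 2 was set apart there. Rsph1, another spoke head protein, at the 96.6 percentile, was at 12.27 and 12.69, 12.10 and 11.49, and 12.34 and 12.46. Rsph9, of the same spoke head, was at 11.79 and 12.48, 11.65 and 10.68, and 11.38 and 11.62. In Rsph1 and Rsph9 the highest array was RAG-/- replicate 1, where in Rsph4a it was RAG-/- replicate 3, so the 3 spoke head genes did not follow a single order.

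Over the 19 axonemal genes, pair 2 had the lowest pair mean in 16, against 40.3% of all genes, and pair 3 the highest in 12, against 39.7%. Both held for 11, against 25.7%. Of 18 choroid epithelium genes, markers of the labelled tissue, pair 2 was lowest in 16 and both held for 10, so these counts were not particular to the axonemal genes. The 3 genes outside the first count were Tekt4, Hydin and Ccdc40. The low values of pair 2 were not those of RAG-/- replicate 2 alone. With that array left out, WT replicate 2 was the lowest of the remaining 5 in 14 of 19, against 5 of the 18 choroid epithelium genes and 27.2% of all genes. The class means were 9.50 and 9.80 in pair 1, 9.25 and 9.05 in pair 2, and 9.91 and 10.06 in pair 3, WT first.

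Hydin, a large protein of the central pair, was at 7.01 and 7.59 in pair 1, 7.35 and 7.70 in pair 2, and 8.21 and 8.23 in pair 3, WT first. It was again highest in pair 3. Ak7, an adenylate kinase of cilia, was at 11.35 and 11.72, 10.71 and 11.16, and 12.08 and 12.04. Dnah9, an outer arm dynein heavy chain, was at 9.03 and 9.34, 8.91 and 8.64, and 9.79 and 9.77, and its dimmer probe set kept pair 2 lowest and pair 3 highest. Enkur, a protein inside the doublets, was at 9.07 and 8.95, 8.57 and 9.09, and 9.64 and 10.11. Dnah5, below the dim limit, ran from 4.71 to 6.09. Ccdc40, which with Ccdc39 sets the repeat length of the doublet, was near the dim limit at the 40.7 percentile, and it ran from 4.601 in WT replicate 1 to 7.45 in RAG-/- replicate 2. Ccdc39, at the 84.4 percentile, ran from 8.998 to 10.34, and its 3 probe sets differed in direction by description, at -0.19, 0.38 and -0.47.

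The remaining axonemal genes were Tekt1, Tekt2 and Tekt4, filaments of the doublet wall, Dnali1, an inner arm dynein chain, Dnah11, Ccdc113 and Spef2. Tekt4, the narrowest in range of these, was at 7.72 and 7.60 in pair 1, 7.02 and 7.54 in pair 2, and 7.01 and 6.93 in pair 3, WT first. It was the sole tektin with pair 3 lowest. Tekt2 was at 6.92 and 6.94, 6.04 and 6.31, and 6.92 and 6.89, and Tekt1 at 9.66 and 10.40, 9.57 and 8.83, and 9.84 and 10.05. Both had pair 2 lowest. Dnali1 was at 9.74 and 10.12, 9.47 and 9.10, and 9.67 and 9.84, and Ccdc113, which is placed between spokes, at 8.95 and 9.56, 8.69 and 7.87, and 9.31 and 9.49. In both, pair 2 was lowest and pairs 1 and 3 overlapped. A dimmer Dnali1 probe set was at 7.13 and 7.60, 6.81 and 7.16, and 7.53 and 8.28, with RAG-/- higher in every pair. Its difference by description was 0.52, against 0.06 on the brighter one, and its genotypes overlapped. Dnah11 was at 8.26 and 9.24, 8.79 and 8.05, and 9.17 and 9.35, with its widest gap, 0.97, inside pair 1. Spef2, a central pair protein, had 3 probe sets, and all of them had pair 2 lowest and pair 3 highest. Its brightest was at 6.98 and 7.12, 6.63 and 6.47, and 7.88 and 7.68.

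Of the intraflagellar transport genes, Ift88 was at 9.51 and 9.53 in pair 1, 9.13 and 9.21 in pair 2, and 10.26 and 10.06 in pair 3, WT first. The pairs again stood apart from one another. Ift172 ran from 9.22 in RAG-/- replicate 2 to 10.15 in RAG-/- replicate 1.

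**Figure D2:**
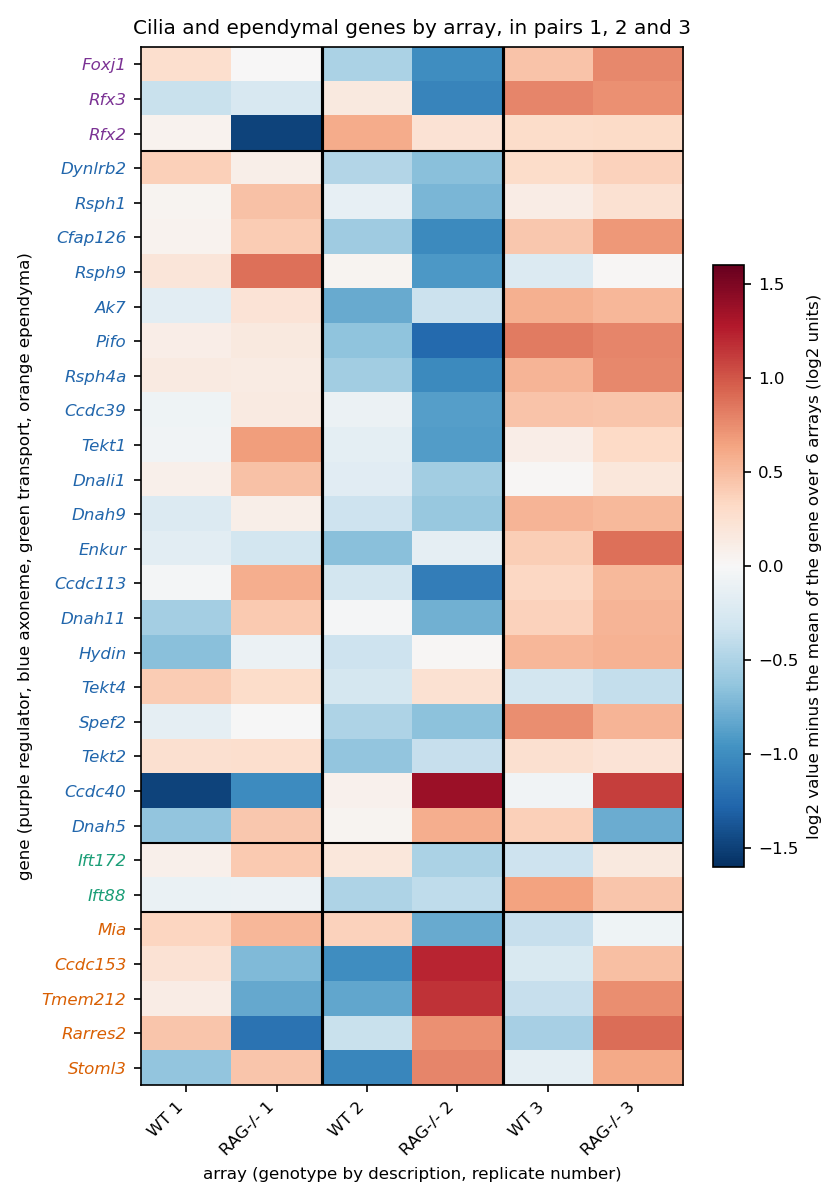
Log2 value of each of the 30 measured members minus its mean over 6 arrays, with WT and RAG-/- arrays side by side in pairs 1, 2 and 3 and genes grouped by class. Axonemal genes are mostly low in both arrays of pair 2 and high in both of pair 3, and Ccdc153, Tmem212 and Rarres2 are higher in WT replicate 1 and RAG-/- replicates 2 and 3 than in the other 3 arrays.

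Axonemal genes were not steadier than the genes of the array as a whole by median range or by the share of steady genes. A gene was called steady where its range was under 1 and varying where it was 2 or more. Of 29 members, 3 were steady (Tekt4, Tekt2 and Ift172), against 44.6% of all genes, and 5 were varying (Ccdc40, Ccdc153, Rarres2, Pifo and Rfx2), against 14.3%. Of the 19 axonemal genes alone, 2 were steady and 2 varying, 10.5% each, so their share of varying genes was not above that of all genes. The nearest to the limits from outside were Dnali1, with a range of 1.02, and Tmem212, with 1.98. The median range was 1.37 for the axonemal genes and 1.08 for all genes. Without RAG-/- replicate 2, 11 of the same 29 were steady, against 62.5% of all genes, and 3 were varying, against 6.58%. By description the mean differences of 18 of these 19 genes lay between -0.20 for Pifo and 0.32 for Hydin, and that of Ccdc40 was 0.98. Some of these small means joined opposite pairs, since RAG-/- minus WT was 0.97 in pair 1 and -0.74 in pair 2 for Dnah11, and 0.69 and -0.97 for Rsph9. By title the differences reached -0.51 for Dnah11, -0.47 for Rsph9 and -0.42 for Tekt1.

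In the ependymal class, Ccdc153, a component of the nexin link, was at 10.59 and 9.66 in WT and RAG-/- replicate 1, 9.37 and 11.57 in replicates 2, and 10.11 and 10.84 in replicates 3. The 3 arrays titled RAG were its 3 highest. Tmem212, a membrane protein, was at 9.83 and 8.90, 8.89 and 10.87, and 9.35 and 10.46 in the same order. Rarres2, which encodes the chemoattractant chemerin, was at 9.50 and 7.87, 8.71 and 9.80, and 8.53 and 9.95. In each of these genes WT replicate 1 lay with RAG-/- replicates 2 and 3, and RAG-/- replicate 1 with WT replicates 2 and 3.

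By description these genes overlapped between the genotypes. RAG-/- minus WT was 0.67 (SE 0.52) for Ccdc153, 0.72 (SE 0.53) for Tmem212 and 0.30 (SE 0.58) for Rarres2 (limma, adjusted p = 1 for each). By title the arrays titled RAG all lay above those titled B10. The difference was then 1.29 (SE 0.35), from 9.71 ± 0.38 to 11.002 ± 0.51, for Ccdc153 (SD, n = 3, here and for the next 2 genes). It was 1.34 (SE 0.34), from 9.04 ± 0.26 to 10.39 ± 0.52, for Tmem212, and 1.38 (SE 0.32), from 8.37 ± 0.44 to 9.75 ± 0.23, for Rarres2. None passed the threshold over all probe sets (limma, adjusted p = 0.999936 for each), and exact permutation p was 0.1, the smallest that 3 against 3 arrays allow, two-sided and without the pairs. Within pairs 1, 2 and 3 the array titled RAG was higher by 0.93, 2.21 and 0.73 for Ccdc153, by 0.94, 1.98 and 1.11 for Tmem212, and by 1.63, 1.09 and 1.43 for Rarres2. In all 3 genes every pair went the same way, and pair 2, which holds RAG-/- replicate 2, gave the largest difference for the first and second of them. Without that array the differences by title were 1.003, 1.10 and 1.36, and by description 0.23, 0.32 and 0.0013.

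The values above are from the brightest of 3 Rarres2 probe sets. A second was at 8.78 and 8.12, 8.08 and 9.01, and 8.12 and 8.77, and so parted by title as well. The third, at the 33.8 percentile, was below the dim limit and did not. Stoml3, a stomatin-like membrane protein known from sensory neurons, parted by description instead. Its brighter probe set was at 7.74 and 8.80 in pair 1, 7.32 and 9.15 in pair 2, and 8.20 and 8.97 in pair 3, WT first. The dimmer one was at 5.52 and 6.88, 5.51 and 6.86, and 6.11 and 7.23. On both, every RAG-/- array lay above every WT array.

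For the brighter Stoml3 probe set RAG-/- minus WT was 1.22 (SE 0.33), from 7.75 ± 0.44 to 8.97 ± 0.17 (SD, n = 3; limma adjusted p = 1; exact permutation p = 0.1, the smallest possible). By title its groups overlapped, with a difference of 0.51. The difference by description was 1.13 without RAG-/- replicate 2 and 1.296 without pair 1. Mia, a small secreted protein, followed neither reading, at 11.21 and 11.40, 11.24 and 10.06, and 10.49 and 10.80. Its lowest array was RAG-/- replicate 2.

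**Figure D3:**
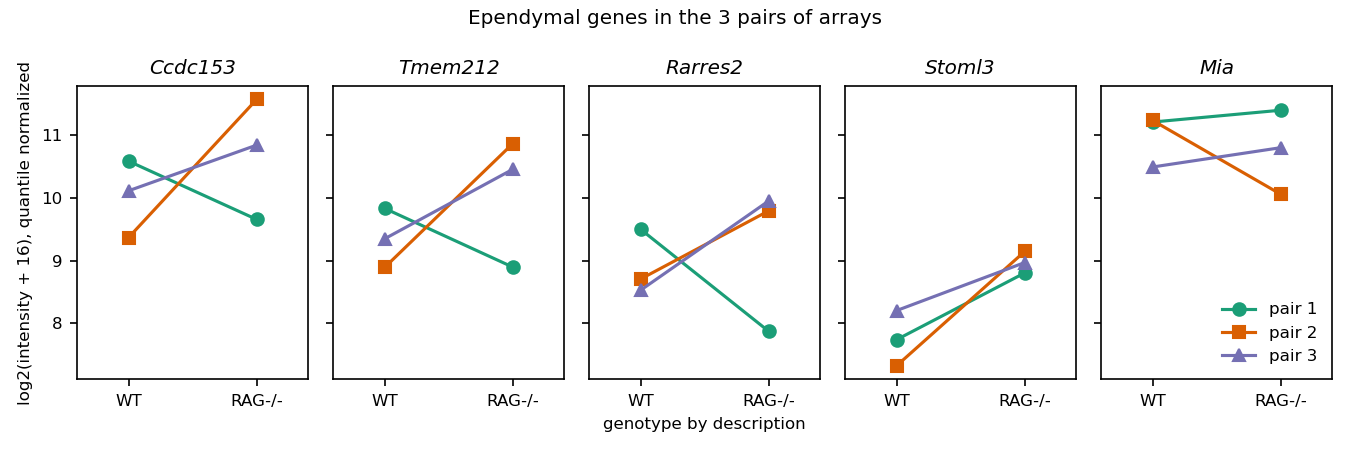
Log2 value of the 5 genes of the ependymal class in WT and RAG-/- arrays by description, with a line for each pair. In Ccdc153, Tmem212 and Rarres2 the line of pair 1 slopes down and those of pairs 2 and 3 up, in Stoml3 all 3 slope up, and in Mia that of pair 2 slopes down.

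For the whole set, 0 of 29 members passed the threshold by description (limma with Benjamini-Hochberg adjustment, 0.05), and 0 of 27023 probe sets did, a share of 0%. An unadjusted p under 0.05 was found in 1 of 29, Stoml3, against 0.711% of probe sets. The members' median difference was 0.05, with 16 higher and 13 lower, and that of all genes was -0.0070. The median was 0.32 without RAG-/- replicate 2 and 0.15 without the whole of pair 2. The first of these settings leaves WT replicate 2, low in most axonemal genes, without its partner, and so also carries the difference between pairs. In that first setting Ccdc113, Dnah11, Dnali1, Rsph1 and Tekt1 joined Stoml3 in having both remaining RAG-/- arrays above all WT arrays. With all arrays, RAG-/- lay wholly above WT in 1 of 29 members, against 1.69% of all genes, and wholly below it in 0, against 1.41%.

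By title 0 of 29 members passed, as did 0 of 27023 probe sets (0%), and 3 of 29, Ccdc153, Tmem212 and Rarres2, had an unadjusted p under 0.05, against 1.23% of probe sets. In those 3 members the arrays titled RAG lay wholly above the others, against 2.2% of all genes, and in 0 wholly below, against 2.53%. The array titled RAG was higher by over 0.5 in each of the 3 pairs in 3 of 29 members, against 0.842% of all genes. The same measure by description was met by 1, Stoml3, against 0.318%. Under 4 other scalings and pseudocounts the 3 genes were apart by title as well, and Stoml3 by description.

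With the pair as a block, which uses the differences within pairs, 0 of 29 members passed by description, as did 0 of 27023 probe sets (0%). Stoml3 and Ccdc40, 2 of 29, had an unadjusted p under 0.05, against 2.35% of probe sets. By title with the block, 0 of 29 passed, against 0.0037% of probe sets, the smallest adjusted p of a member being 0.926 (limma). Ccdc153, Tmem212 and Rarres2, 3 of 29, had an unadjusted p under 0.05 there, against 4.14% of probe sets.

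**Figure D4:**
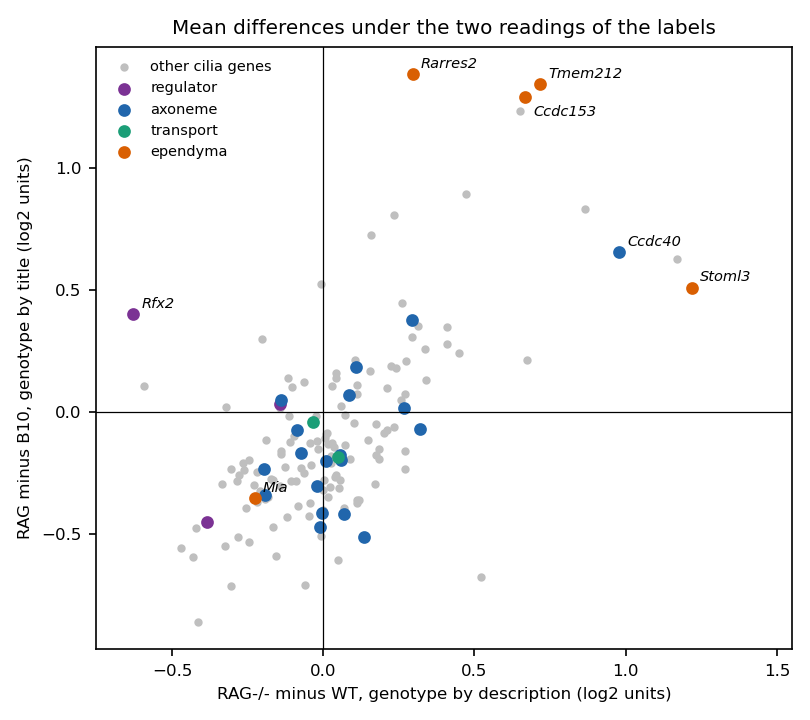
Mean difference of each of 29 members (coloured by class) and 125 other cilia genes (grey), with the genotype by description on the horizontal axis and by title on the vertical axis, in log2 units. Rarres2, Tmem212 and Ccdc153 lie between 1.29 and 1.38 by title, Stoml3 lies farthest to the right at 1.22 by description, and most axonemal genes lie near 0.

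Among the axonemal genes above the dim limit, 0 of 19 had groups that did not overlap, by description or by title. By description 11 of 19 were higher and 8 lower, with a median of 0.05, and by title 6 were higher and 13 lower, with a median of -0.18. The median by title was -0.025 for all genes and -0.38 for 18 choroid epithelium genes, 17 of them lower. The mean difference of the axonemal class by title was -0.31 in pair 1, -0.20 in pair 2 and 0.15 in pair 3. Without RAG-/- replicate 2 the median by title was 0.11 and 5 of 19 were lower, and the median by description was 0.39. That setting leaves WT replicate 2, of the low pair, without its partner, so these medians also carry the difference between pairs.

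The rest of the cilium was read from a list of 163 further genes for dyneins, dynein assembly, links and spokes, the doublet interior, regulators and intraflagellar transport. Of these 137 had a probe set and 125 lay above the dim limit. By description 0 of 125 passed the threshold, 66 were higher and 59 lower, with a median of 0.01. By title 0 passed, 37 were higher and 88 lower, with a median of -0.17, where that of all genes was -0.025. Of 18 choroid epithelium genes 17 were lower by title, with a median of -0.38, so this lean was not particular to cilia genes. The mean difference of the 125 genes by title was -0.20 in pair 1, -0.21 in pair 2 and 0.07 in pair 3. The median by title was 0.09 without RAG-/- replicate 2, a setting that leaves WT replicate 2 without its partner. Pair 2 had the lowest pair mean in 95 of 125 and in all 11 dynein assembly genes, against 40.3% of all genes. The spread between pairs nevertheless exceeded that within pairs in only 72 of 125, against 53.1% of all genes.

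Intraflagellar transport genes were the steadiest class of that list, with 20 of 34 under a range of 1, against 44.6% of all genes. Their median range was 0.91, against 1.08 for all genes. The smallest ranges in the list were those of Cfap20 at 0.25, Bbs4 at 0.37, Dync2h1 at 0.39, Meig1 at 0.40, Bbs7 at 0.49 and Wdr92 at 0.54. Bbs4 and Bbs7 belong to the BBSome, which carries membrane proteins in cilia, and Dync2h1 is the motor that runs back to the ciliary base. The widest were those of Tekt5 at 3.08, Cfap69 at 3.06, E2f5 at 3.03, Fam183b at 2.99, Ccdc146 at 2.93 and Morn3 at 2.71. E2f5, a regulator of multiciliation, was at 8.72 and 9.14 in pair 1, 10.35 and 10.46 in pair 2, and 11.75 and 11.23 in pair 3, WT first, and so differed by pair but not in the axonemal order. Fam183b was at 8.41 and 7.54, 6.44 and 9.43, and 8.25 and 8.08, with RAG-/- replicate 2 the highest and WT replicate 2 the lowest.

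Markers of other cell types differed between the arrays alongside these genes. The mean of Ccdc153, Tmem212 and Rarres2, 3 genes grouped after their values were seen, was 9.97 and 8.81 in pair 1, 8.99 and 10.75 in pair 2, and 9.33 and 10.42 in pair 3, WT first. The mean of 11 oligodendrocyte genes was 10.55 and 10.08, 10.27 and 11.70, and 9.78 and 11.65, higher in the array titled RAG of each pair as well. All 11 were higher on average by title, with a median difference of 1.24, and by description, with a median of 1.08. By title 7 of 11 had every array titled RAG above the others, against 2.2% of all genes, and by description 1 of 11 had every RAG-/- array above WT, against 1.69%. Their brightest were Mbp, between 14.20 and 14.81, and Mobp, between 11.73 and 13.95. The mean of 12 astrocyte genes was 11.61 and 11.27, 11.18 and 12.01, and 10.81 and 10.74, and that of 14 neuron genes 10.17 and 9.95, 10.47 and 11.47, and 9.47 and 9.19. Both were higher in the array titled RAG of pairs 1 and 2 and not in pair 3. Glul and Gja1 led the astrocyte list and Snap25 and Syt1 the neuron list, so RNA of brain tissue was present in every array. Of 11 genes of tanycytes, the subcommissural organ and related ventricular cells, 9 were higher by title, with a median difference of 0.32, and 3 higher and 8 lower by description, with a median of -0.14, where the medians of all genes were -0.025 and -0.0070. Car10 and Vim led that list.

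The axonemal means did not follow the choroid epithelium mean apart from RAG-/- replicate 2. The epithelium mean was 13.09 and 13.27, 13.19 and 12.22, and 13.15 and 13.20, and differed by at most 0.176 among the other 5 arrays, where the axonemal means ran from 9.25 to 10.06. Fibroblast and endothelial means, led by Igf2 and Ogn and by Kdr and Vwf, were lowest in RAG-/- replicate 2, at 9.93 and 7.93, and highest in WT replicate 1, at 12.29 and 9.35. The part of these cell contents in the ependymal and axonemal patterns was not tested, and in tissue RNA fewer cells of a type and less RNA per cell cannot be told apart.

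**Figure D5:**
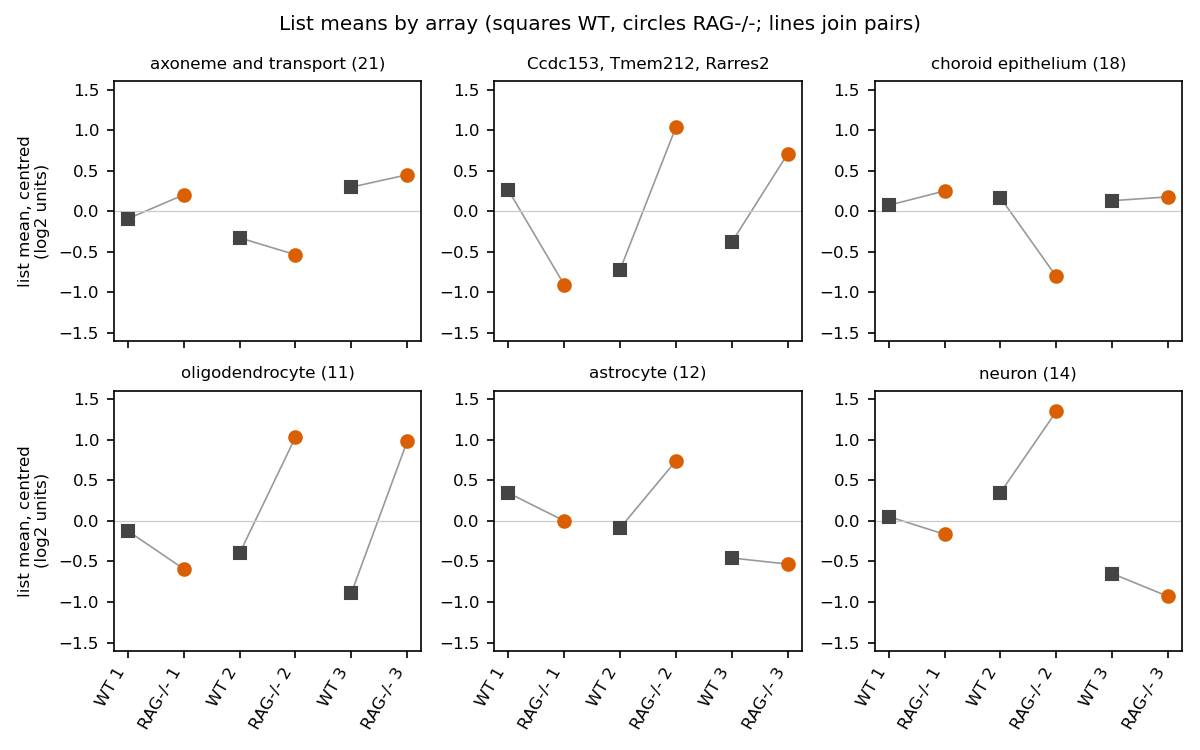
Mean log2 value of each gene list by array, centred on its mean over the 6 arrays, with squares for WT, circles for RAG-/- and lines joining pairs and the number of genes of each list in brackets. The mean of Ccdc153, Tmem212 and Rarres2 and that of the oligodendrocyte genes are higher in WT replicate 1 and RAG-/- replicates 2 and 3 than in their partners, and the mean of 21 axonemal and transport genes follows the pairs.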

How the data were processed

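The authors deposited a linear intensity for each of 45101 probe sets on every array. Software and normalization were not given in the sources used here. Each array has the same mean deposited intensity after the lowest and highest 2% are set aside, so arrays had been scaled one by one. The 64 control probe sets were left out, and values were taken as log2(intensity + 16), which understates changes of dim probe sets, and quantile normalized. The dimmest 40% were left out of the tests, which left 27023 probe sets. Of 45037 probe sets, 34945 had 1 symbol in the platform annotation, 932 several and 9160 were unnamed here, and 34741 were updated through the gene number to GRCm38.p6. The brightest probe set stood for a gene.

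Differences were tested with limma 3.58.1 in R 4.3.3 (lmFit, eBayes with trend, two-sided, Benjamini-Hochberg over all probe sets, threshold 0.05) over 3 WT and 3 RAG-/- arrays, and the code was tested on simulated data. The small number of arrays limits the precision. Deviations from group means correlated at 0.29, 0.39 and 0.58 within pairs and at -0.42 to 0.01 across them, so the code in the titles was taken to pair arrays. Promoters were searched with Python 3.11.15. Alternatives were genotype by title, the pair as a block, scaling, pseudocount, dim filter, probe set choice, array weights and arrays or pairs left out. Members and lists were chosen with earlier results of these data known. All members are named, and of other cilia genes the 6 with the smallest and the 6 with the largest range; from each cell type list 2 genes with the highest mean are named.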

Additional observations from a re-analysis of the deposited data

How the results depend on the processing

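Over all probe sets the count past the threshold by description was 0 in the main setting, 4 without RAG-/- replicate 2, 0 without each other array, 2 without pair 2 and 1 with the pair as a block and the genotype by title. With the pair as a replicate block, 0 passed by description (0 of 29 members; 636 of 27023 with an unadjusted p under 0.05). No member passed in any of the 20 alternatives. The members' median difference, 0.05, lay between -0.12 and 0.32 with single arrays left out and was 0.05 with the block. It was -0.10, 0.15 and -0.012 without pairs 1, 2 and 3.

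The counts of steady and varying members depended on the settings. Steady members, 3 in the main setting, were 5 as deposited, 5 with a pseudocount of 64, 1 with the dimmest 60% left out, 7 with the mean of all probe sets, between 3 and 11 without single arrays, and 8, 18 and 8 without pairs 1, 2 and 3. Varying members, 5 in the main setting, were 2 with a pseudocount of 64, 3 with the dimmest 60% left out, 3 with the mean of all probe sets, between 2 and 5 without single arrays, and 2, 1 and 1 without pairs 1, 2 and 3. The cause was not tested, although fewer arrays give smaller ranges by construction. The dim filter was redone in each setting, so 28 members were counted without RAG-/- replicate 2.

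Members whose RAG-/- arrays all lay above WT, a count chosen after seeing the data, were 1 by description, between 1 and 6 without single arrays, and 5, 7 and 2 without pairs 1, 2 and 3. By title they were 3, between 3 and 5 without single arrays, and 5 without pair 1. Fewer arrays part more easily. Of the single members, 10 of 568 differences and 36 of 452 ranges moved by more than 1 SD between replicates.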

Other observations

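Among all 13537 genes above the dim limit, 114 had the array titled RAG higher by over 0.5 in each of the 3 pairs, as Ccdc153, Tmem212 and Rarres2 did. This count, and the genes below, were chosen after their values were seen. The 114 held 6 genes of the oligodendrocyte list, namely Mal, Cldn11, Mog, Ugt8a, Cnp and Opalin, 1 of the list of tanycytes and the subcommissural organ, Adamts20, and 1 of the other cilia genes, Rfx4. The smallest of the 3 pair differences was 3.03 for Pttg1, 1.58 for Pet100, 1.37 for A430108G06Rik, 1.295 for Fcna and 1.26 for Plxnb3, and 1.09 for Rarres2. Fos, an immediate early gene, was among them, at 1.004.

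Of the other cilia genes, 7 had groups that did not overlap under one of the readings. By description Dnah1 and Dnah7a, both dynein heavy chains, had every RAG-/- array above every WT array, with differences of 0.87 and 0.45. They were 2 of 125, a share near the 1.69% of all genes. By title Trp73, a regulator of multiciliation, E2f4, Cfap298, Nme7 and Meig1 had every array titled RAG below the others. Their differences were -0.86, -0.71, -0.51, -0.31 and -0.23, and they were 5 of 125, against 2.53% of all genes. None of the 7 passed the threshold (limma, adjusted p = 1 for the first 2 by description and 0.999936 for the other 5 by title).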
